A study of Arabidopsis thaliana with 12 samples.

Results

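AT1G73600 (also called NMT3) is an Arabidopsis thaliana gene for a phosphoethanolamine N-methyltransferase, and it was read by 1 probe set, 259842_at, of the 22810 on the ATH1 array. The annotation used here names 1 gene each for 13513 of these probe sets. The gene was selected on its measured signals: its large change with submergence in ago1-27 on these same 12 arrays was already known. Its own levels and changes are therefore given as a description, with no test.

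RNA came from leaves of plants 4 weeks old, and each replicate pooled 4 plants. There were 4 groups of 3 biological replicates: ago1-27 submerged, ago1-27 in the dark, Col-0 wild type submerged and Col-0 wild type in the dark. The mutant ago1-27 is in the Col-0 background and is hypomorphic, so some function of ARGONAUTE1, the protein that is guided by microRNAs to their target transcripts, remains. Both treatments lasted 12 h in darkness, and the submerged plants had 10 cm of water above the leaves. The question was how submergence changes leaf transcripts in each genotype.

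Phosphoethanolamine N-methyltransferases transfer methyl groups from S-adenosylmethionine to phosphoethanolamine or its partly methylated forms, and the end product is phosphocholine. Phosphocholine is the head group from which phosphatidylcholine, a main phospholipid of plant membranes outside the plastid, is made. Choline can enter the same route through choline kinases, and the cytidylyl transferases CCT1 and CCT2 and the aminoalcohol phosphotransferases then carry the head group into the lipid. Membrane lipids are known to be remodelled in submerged Arabidopsis leaves.

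The arrays held clear leaf signal. Of the 4 leaf genes named, RCA, the activase of Rubisco, lay between 19389 and 32073 on all 12 arrays. LHCB4.2 ranged more widely, from 2608 in dark wild type to 24231 in submerged ago1-27. EXPA7, a gene of root hairs and the 1 root gene named of 8 listed, lay under the low-signal limit on all 12. This limit is the 40th percentile of each array. AGO1 is not named in the annotation used here and gave no check of the genotype labels. Of 22 known low-oxygen response genes, 21 had all 6 arrays labelled ago1-27 below all 6 labelled wild type, and 0 had all 6 arrays labelled submerged above all 6 labelled dark. All changes below follow the labels as deposited. If the labels of the ago1-27 submerged and wild-type dark arrays were exchanged, the interaction below would come out the same, because it adds both groups, but each change between 2 groups would be a different comparison. The control probe set U12639 parted the arrays by labelled treatment in both genotypes. It was at 1.74 to 44.7 on the 6 arrays labelled submerged, against 24471 to 29779 on the 6 labelled dark. With that exchange, the 21 low-oxygen genes would have all 6 submerged arrays above all 6 dark ones. U12639 would then part the arrays by genotype. Which labels are right was not tested. Wild type in the dark replicate 1 and ago1-27 submerged replicate 3 stood apart, with mean correlations of 0.937 and 0.935 with the other arrays of their groups, against 0.951 to 0.976 for the other 10 arrays.

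The signal of AT1G73600 was 1201, 1545 and 1316 on the submerged ago1-27 arrays, against 184, 196 and 159 on the ago1-27 arrays in the dark. All 3 submerged mutant arrays lay far above all 3 dark ones, and replicates of each group lay close together. In wild type the signal was 601, 557 and 962 on the submerged arrays, against 308, 426 and 476 on the dark arrays. The wild-type groups did not overlap either, but they lay much nearer to each other, and submerged replicate 3 was well above its group mates. The gene was above the low-signal limit on all 12 arrays, from 1.73 to 16.8 times that limit.

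**Figure D1:**
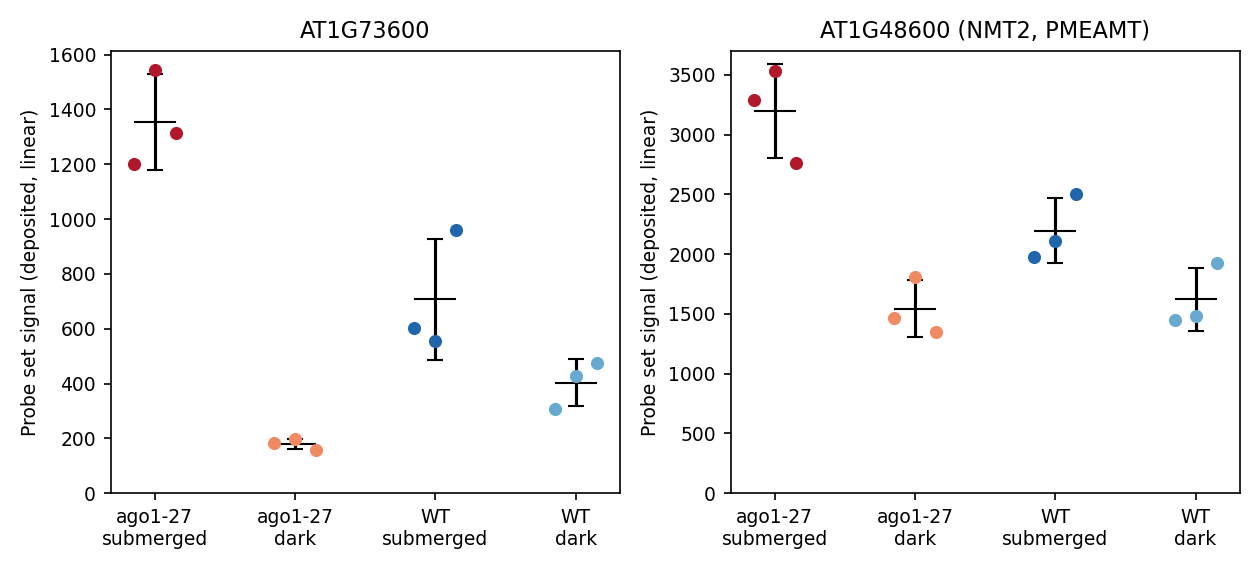
Probe set signal (linear scale as deposited) of AT1G73600 on the left and of its relative NMT2 (AT1G48600) on the right, for ago1-27 submerged, ago1-27 dark, wild type submerged and wild type dark. Points are single arrays in order of replicate number, and bars are the mean ± SD of 3 arrays. AT1G73600 lies between 1201 and 1545 on the submerged ago1-27 arrays and between 159 and 196 on the dark ones, and both genes are highest on the submerged ago1-27 arrays.

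The order of the groups was therefore submerged ago1-27, submerged wild type, wild type in the dark and ago1-27 in the dark. Means were 1354 ± 175 for submerged ago1-27, 707 ± 222 for submerged wild type, 403 ± 86.7 for dark wild type and 179.8 ± 18.7 for dark ago1-27 (SD, n = 3 each). No neighbours in this order overlapped. The gap was narrowest between submerged wild type and wild type in the dark, where the lowest submerged array was 1.17 times the highest dark array. It was widest between wild type and ago1-27 in the dark, where the lowest wild-type array was 1.57 times the highest mutant array. Spread was also largest in wild type, with a coefficient of variation of 31.4% in the submerged and 21.5% in the dark group, against 12.9% in submerged ago1-27 and 10.4% in ago1-27 in the dark.

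The rank of the gene within each array, which does not depend on how arrays were scaled, showed the same order. AT1G73600 lay above 87.2% to 90% of all probe sets on the submerged ago1-27 arrays, and above 48.9% to 54.4% on the ago1-27 arrays in the dark. On the wild-type arrays it lay above 74.7% to 83.9% of probe sets under submergence and above 62.4% to 72.8% in the dark. The transcript thus sat near the middle of the signal range on the arrays labelled ago1-27 dark. It sat among the higher signals on those labelled ago1-27 submerged.

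In ago1-27, the signal of AT1G73600 was 7.52-fold higher under submergence than in the dark (log2 change 2.91 ± 0.22, SE of the limma fit). Of the 14812 probe sets that passed the filter on low signals, 11 had a larger rise in this contrast. Non-overlapping arrays alone were common, since 18.4% of these probe sets had all 3 submerged ago1-27 arrays above all 3 dark ones. This contrast chose the gene, so nothing is read from that share. In wild type the gene was 1.73-fold higher under submergence (log2 change 0.79 ± 0.22), and 918 probe sets had a larger rise. All 3 wild-type submerged arrays lay above all 3 dark arrays for 15.5% of probe sets.

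The interaction, the submergence change in ago1-27 minus that in wild type, was 2.12 ± 0.31 on the log2 scale (SE), a 4.35-fold difference between the fold changes. It was larger in 41 of the 14812 probe sets. The same 12 arrays give the genotype changes, which went in opposite directions under the 2 treatments. Under submergence AT1G73600 was 1.96-fold higher in ago1-27 than in wild type (log2 change 0.97 ± 0.22), and in the dark it was lower in ago1-27 (log2 change -1.15 ± 0.22), at 0.452 times the wild-type level. The median log2 change of all probe sets was 0.17 in both genotype contrasts, and with arrays centred on their medians the changes of AT1G73600 were 0.77 under submergence and -1.34 in the dark. These contrasts share arrays with those of submergence and are not separate evidence. With the labels of submerged ago1-27 and dark wild type exchanged, the submergence change would be 1.15 in ago1-27 and -0.97 in wild type. The change of ago1-27 over wild type would be -0.79 under submergence and -2.91 in the dark, so lower in ago1-27 under both treatments. The interaction would still be 2.12. The sign in wild type, the opposite directions of the genotype changes and the ranks of the submergence changes thus hold only for the labels as deposited. Without the 2 arrays that stood apart the log2 change was 2.93 in ago1-27 and 0.61 in wild type, and the interaction was 2.32.

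Other control signals of the arrays moved with the groups too. The 3' to 5' ratio of the actin control was 10.7 to 12.5 on submerged ago1-27 arrays and 7.06 to 8.72 on ago1-27 arrays in the dark, but 5.57 to 6.68 on submerged wild-type arrays and 7.65 to 8.5 on wild-type arrays in the dark. The 25S ribosomal RNA control was at 7269.9 to 10281 on submerged and 14622 to 16248 on dark ago1-27 arrays, and at 16032 to 18509.8 on submerged and 18265 to 21199 on dark wild-type arrays. Their part in the values of AT1G73600 was not tested. In bulk leaf RNA, a change in the share of cells that express a gene and a change in RNA per cell cannot be told apart.

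The pathway list held 17 other genes of phosphocholine and phosphatidylcholine synthesis, of which the annotation names 6, and all 6 passed the filter. These were NMT2, the choline kinase genes CEK2 and CEK3, the cytidylyl transferase genes CCT1 and CCT2, and AAPT2, a phosphotransferase of the last step. Lists for S-adenosylmethionine metabolism, phospholipid turnover and plastid lipids found no named gene, so they gave no values.

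NMT2 (AT1G48600, PMEAMT), the relative that methylates phosphomethylethanolamine, moved in the same directions as AT1G73600 under submergence, by less. Its signal was 3287, 3535 and 2766 in submerged ago1-27, against 1467, 1813 and 1351 in ago1-27 in the dark. All 3 submerged arrays lay above all 3 dark ones, as for 18.4% of probe sets. NMT2 rose 2.08-fold (log2 change 1.05 ± 0.16, SE, limma adjusted p = 0.003). It was the 1 gene of 6 called in this contrast, in which 8.38% of all probe sets were called and 4.19% were called higher. Its call held in all 24 alternatives tried, with adjusted p up to 0.025. The exchange of labels described above was not among them. With it, this contrast would set the arrays labelled wild-type dark against those labelled ago1-27 dark. NMT2 was not called between these (limma adjusted p = 0.74). In wild type NMT2 was at 1980, 2108 and 2506 under submergence, against 1452, 1482 and 1928 in the dark. These groups did not overlap either, with all 3 submerged arrays higher, as for 15.5% of probe sets. The change did not pass the test (log2 change 0.44 ± 0.16, limma adjusted p = 0.12). The interaction of NMT2 was 0.61 ± 0.23, which was not called (limma adjusted p = 0.23). With array weights it was 0.93 and was called (limma adjusted p = 0.0095), and in the other alternatives it was not, with adjusted p up to 0.45.

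The other 5 genes gave no call for submergence in ago1-27, with log2 changes from -0.08 for CEK2 to 0.38 for CCT2. The median of the 6 was -0.03, beside 0.06 over all probe sets. CCT1, whose enzyme activates phosphocholine for lipid synthesis, was at 617 ± 91.9 in submerged ago1-27 and 632 ± 44.6 in ago1-27 in the dark (SD, n = 3 each). AAPT2 was at 1671 ± 397 and 1675 ± 60.2 in the same groups.

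In wild type 0 of the 6 genes were called by limma, against 7.08% of all probe sets, although 4 had an unadjusted p under 0.05, as did 22.5% of all probe sets. CCT1 was lower on all 3 submerged wild-type arrays than on all 3 dark ones, as were 10.1% of probe sets, at 750.4 ± 84 under submergence and 1054 ± 62.1 in the dark (log2 change -0.49 ± 0.14, limma adjusted p = 0.055). AAPT2 was higher on all 3, as were 15.5% of probe sets, at 697 ± 56.9 under submergence and 436 ± 155 in the dark (log2 change 0.74 ± 0.24, limma adjusted p = 0.082). CEK3 was at 166 ± 36.1 for submerged and 229.6 ± 33.4 for dark wild type (log2 change -0.48 ± 0.22, limma adjusted p = 0.22). The count of 0 depended on the fit and on single arrays. AAPT2 was called with array weights, with the replicate block and without wild type in the dark replicate 1, and CCT1 with the stricter filter, median centring, array weights and without ago1-27 submerged replicate 1. Both were called without ago1-27 submerged replicate 3 and without both arrays that stood apart (adjusted p over all alternatives 0.00031 to 0.28 for AAPT2 and 0.0036 to 0.18 for CCT1). CEK3 was called with array weights (adjusted p = 0.026, and up to 0.54 elsewhere), and CEK2 with array weights and without both arrays that stood apart (lowest adjusted p = 0.031, highest 0.9). For the interaction 0 of the 6 were called by limma, against 0.284% of all probe sets, and 3 had an unadjusted p under 0.05, as did 14.8% of all probe sets.

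**Figure D2:**
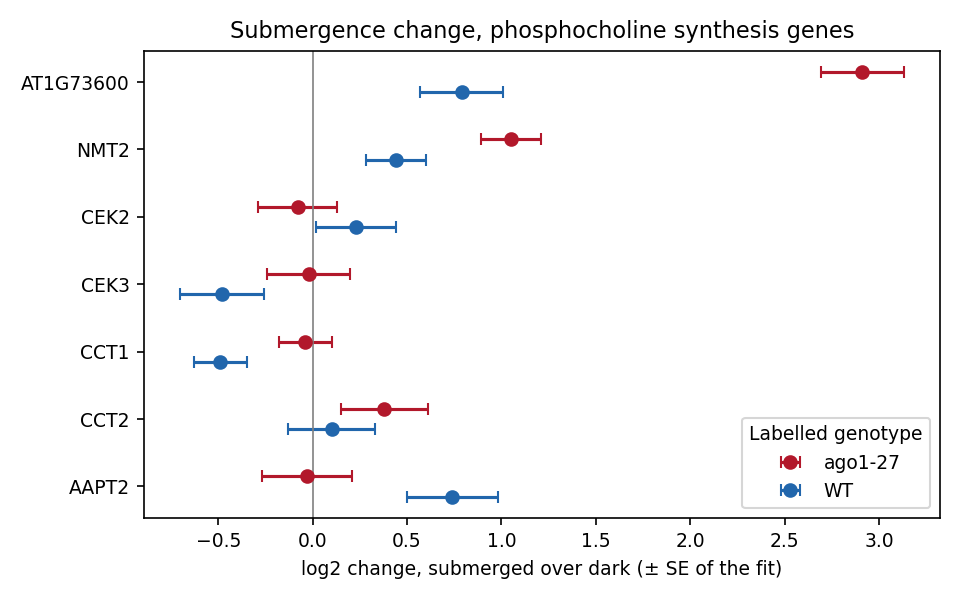
log2 change, submerged over dark, of AT1G73600 and the 6 other named genes of phosphocholine and phosphatidylcholine synthesis, in ago1-27 (red) and wild type (blue). Points are estimates of the limma fit and bars their SE. AT1G73600 lies at 2.91 in ago1-27 and 0.79 in wild type, NMT2 at 1.05 and 0.44, and the other 5 genes lie between -0.08 and 0.38 in ago1-27.

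Calls were common in both genotype contrasts, for the pathway genes as for the array as a whole. Under submergence 4 of the 6 genes were higher in ago1-27 and 0 lower, in a contrast that called 26.7% of probe sets higher and 17.8% lower. AAPT2 was at 1671 ± 397 in submerged ago1-27 and 697 ± 56.9 in submerged wild type (log2 change 1.24 ± 0.24, limma adjusted p = 0.0012). CEK3 rose by 1.22 ± 0.22 and CEK2 by 0.79 ± 0.21 on the log2 scale (limma adjusted p = 0.00086 and 0.0092). NMT2 was higher by 0.54 ± 0.16 (limma adjusted p = 0.016). The call of NMT2 was lost after median centring and without wild type submerged replicate 1, wild type submerged replicate 2 or ago1-27 submerged replicate 2 (adjusted p over all alternatives 0.0013 to 0.23). CCT1 and CCT2 were not called in the main fit (log2 change -0.29 ± 0.14 and -0.4 ± 0.23, limma adjusted p = 0.12 and 0.16). Both were called lower with median centring, with array weights, without ago1-27 submerged replicate 3 and without both arrays that stood apart. In the other alternatives they were not called (limma adjusted p over all alternatives 0.012 to 0.37 for CCT1 and 0.0089 to 0.44 for CCT2).

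In the dark 3 genes were higher and 2 lower in ago1-27, in a contrast that called 32.1% of probe sets higher and 20.8% lower. AAPT2 was at 1675 ± 60.2 in ago1-27 and 436 ± 155 in wild type (log2 change 2 ± 0.24, limma adjusted p = 2.4e-05), and CEK2 and CEK3 rose by 1.1 ± 0.21 and 0.76 ± 0.22 on the log2 scale (limma adjusted p = 0.00085 and 0.012). CCT1 was lower in ago1-27, at 632 ± 44.6 against 1054 ± 62.1 in wild type (log2 change -0.74 ± 0.14, limma adjusted p = 0.00081), as was CCT2 (log2 change -0.69 ± 0.23, limma adjusted p = 0.021). NMT2 had means of 1544 ± 240.4 in ago1-27 and 1621 ± 267 in wild type in the dark, and its change of -0.07 ± 0.16 was not called (limma adjusted p = 0.74). CEK3 was not called after quantile normalization, after median centring or without ago1-27 dark replicate 3 (adjusted p up to 0.074), and CCT2 not without wild type in the dark replicate 2 or 3 or ago1-27 dark replicate 1 or 2 (adjusted p up to 0.082).

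The genes whose log2 signals over the 12 arrays were most like AT1G73600 were ranked by Pearson r among 7938 other named genes. The median r was 0.04, 49 genes had an r above 0.8 and 5 above 0.9. The highest were AT3G53560 (r = 0.95), AT3G52960, a plastid peroxiredoxin gene (0.92), AT4G02860 (0.92) and NMT2 (0.91), followed by AT2G33730 (0.9), UBC30 of ubiquitin conjugation (0.9), AT5G12470 (0.89) and AT4G33040 (0.89). The arrays share their 4 groups, so these values describe likeness and carry no test. With group means taken out, r with AT1G73600 was 0.71 for NMT2, 0.69 for AT4G02860 and 0.65 for AT4G33040, but 0.36 for AT3G53560 and 0.06 for UBC30. It was 0.33 for AT5G12470, 0.31 for AT2G33730 and 0.14 for AT3G52960. Over all 7938 genes the median of this r was -0.13, and 151 genes had one at least as high as NMT2. The 8 genes were picked on an r that includes this part, so it is no separate support for their likeness. Hybridisation of NMT2 transcripts to the probes of AT1G73600, or the reverse, was not tested.

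**Figure D3:**
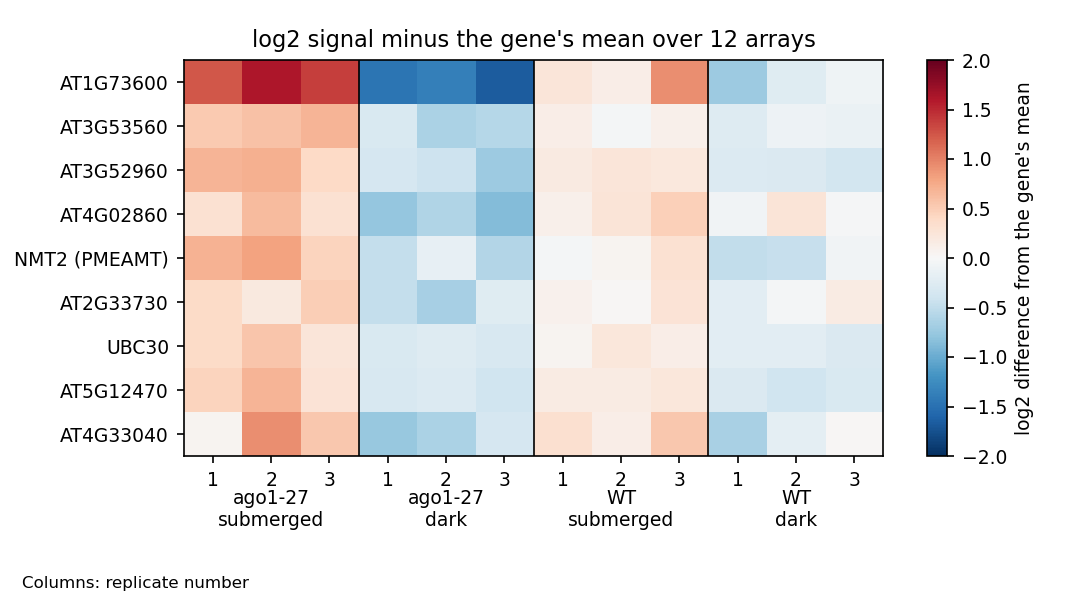
log2 signal of AT1G73600 and of the 8 named genes most like it, as the difference from each gene's own mean over the 12 arrays (colour, from -2 to 2). Columns are arrays by group and replicate number, and rows after the first are in order of Pearson r from 0.95 to 0.89. The submerged ago1-27 columns are mostly the highest and the ago1-27 dark columns mostly the lowest, with a wider range in AT1G73600 than in the other rows.

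The changes of these genes were smaller than those of AT1G73600. AT3G53560 averaged 1007 ± 54.2 for submerged ago1-27, 698 ± 44.4 for submerged wild type, 474 ± 59.6 for dark ago1-27 and 594 ± 33.4 for dark wild type (SD, n = 3 each). It had the same order of groups as AT1G73600 with no overlap between neighbours, which 3 probe sets (0.0203%) showed, AT1G73600 included. Its log2 change with submergence was 1.09 ± 0.13 in ago1-27 and 0.23 ± 0.13 in wild type. AT4G02860 had 1.16 ± 0.15 and 0.23 ± 0.15, and the peroxiredoxin gene AT3G52960 had 1.09 ± 0.13 and 0.52 ± 0.13. Among these 8 genes the log2 change in ago1-27 ran from 0.68 to 1.16 and the interaction from 0.29 to 0.93, below the 2.91 and 2.12 of AT1G73600. Among the other pathway genes, CCT2 had an r of 0.44 with AT1G73600, and CEK2, CEK3, CCT1 and AAPT2 lay between -0.11 and 0.

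RefSeq's TAIR10.1 annotation places AT1G73600 on chromosome 1 and lists 2 proteins for it. Of the 5 annotated genes on each side, 4 were named on the array. AT1G73610 lay under the low-signal limit on all 12 arrays. AT1G73630 averaged 240 ± 49.8 for submerged ago1-27, 261 ± 39.4 for submerged wild type, 161 ± 9.28 for dark ago1-27 and 248 ± 10 for dark wild type. Its submergence change did not pass the test in ago1-27 (log2 change 0.55 ± 0.18, limma adjusted p = 0.078) or in wild type (0.06 ± 0.18, limma adjusted p = 0.88). Neither AT1G73570 nor AT1G73620 was called for submergence in ago1-27 (limma adjusted p = 0.35 and 0.91) or in wild type (0.17 and 0.88).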

How the data were processed

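Leaf RNA was biotin-labelled by in vitro transcription from the 3' end, per the labels' protocols. The authors deposited linear signal intensities, 1 per probe set and array. The submitters' processing notes name MAS5, with no version. Every array has a 2% trimmed mean of 500, and array medians run from 134 to 207. Precision is limited by there being 3 arrays per group.

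Of 22810 probe sets, 13513 name 1 gene in the annotation supplied (13436 matched to RefSeq), and a gene was read by its probe set of highest mean signal. The 64 control probe sets were left out, and 14812 probe sets that exceeded the 40th percentile of an array in 3 or more arrays were kept. Means of the 4 groups were fitted to log2 signals in limma (version 3.58.1, under R version 4.3.3), with a variance trend on intensity, 8 residual degrees of freedom and 4.61 prior ones. Calls are Benjamini-Hochberg adjusted p under 0.05 over all kept probe sets.

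The gene and the lists were chosen with earlier results of these data known. Named are AT1G73600, the named pathway genes, the 8 genes of highest Pearson r and the neighbours among 5 genes on each side. Replicate numbers are not stated to pair plants, so same-numbered arrays were not treated as paired in the main fit. Their residual correlations ran from -0.28 to 0.35, over 0.1 in 8 of 18 pairs, which does not settle whether they were paired.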

Additional observations from a re-analysis of the deposited data

How the results depend on the processing

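The exchange of labels described above was not among the alternatives run here. With it, the log2 change of AT1G73600 would be -0.97 for submergence in wild type and -0.79 between submerged genotypes. AT1G73600 kept its direction in all 5 contrasts under every alternative run. Without single arrays, its log2 change ran from 2.81 to 2.99 in ago1-27, 0.55 to 0.94 in wild type, 1.97 to 2.36 for the interaction, 0.82 to 1.22 between submerged genotypes and -1.33 to -1.01 between genotypes in the dark. With array weights the interaction was 2.43, and the cause was not tested. With the replicate block the estimates were 2.91, 0.79 and 2.12, and the pathway genes called for submergence in wild type went to 1 (AAPT2). That count was also 1 with a stricter filter (60th percentile) and with median centring, 4 with array weights, 3 without the 2 arrays that stood apart (left out by a choice made after seeing the data), and 0 to 2 without single arrays. The interaction called 2 of the pathway genes with array weights, NMT2 and AAPT2. Leaving out single arrays gave 1 called gene for submergence in ago1-27, 0 for the interaction, 3 to 6 for submerged genotypes and 4 to 5 for genotypes in the dark.

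Over all probe sets, the calls for submergence in ago1-27 numbered 1241, and 2701 with array weights, with 346 to 1862 without single arrays. In wild type they numbered 1048, and 4419 with array weights, 431 from the arrays of the 2 groups alone, 3872 without the 2 arrays that stood apart and 322 to 2506 without single arrays. The interaction called 42, and 78 with a stricter filter, 14 with median centring, 83 with a floor at the 25th percentile, 26 with no intensity trend, 1798 with array weights, 1200 without the 2 arrays that stood apart and 5 to 726 without single arrays. A pseudocount of 16, quantile normalization and a robust trend moved none of these counts by over 1.5 times.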
